A study of Rattus norvegicus with 15 samples.

Results

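Genes of retinal bipolar cells and of their ON pathway were examined in rat retina, 9 in all: *Pcp2*, *Grm6*, *Gng13*, *Trpm1*, *Prkca*, *Cabp5*, *Vsx1*, *Rgs11* and *Nyx*. They were taken as every probe set whose platform annotation gives exactly 1 symbol and whose symbol is among these names. That rule found 7 of the 31099 probe sets of the array, which cover 5 of the 9 genes: 1 probe set each for *Pcp2* (1372936_at), *Gng13* (1377993_at), *Trpm1* (1375596_at) and *Prkca* (1372176_at), and 3 for *Grm6* (1387989_at, 1371236_at and 1371235_at). No probe set carried *Cabp5*, *Vsx1*, *Rgs11* or *Nyx* as its only symbol, and these 4 genes were not analysed here.

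RNA of whole retinas from adult, dark-adapted male Long Evans rats was hybridised to 15 Affymetrix arrays, with 3 replicas in each of 5 conditions. The 0 ZT dark rats (ZT is zeitgeber time, in hours) were kept in darkness until 7 am. The 3 ZT dark and 6 ZT dark rats remained in darkness until 10 am and 1 pm, and the 3 ZT light and 6 ZT light rats were taken at the same hours after exposure to 1000 lux. For the 6 ZT light samples the titles and the study give an exposure of 6 hours, which was followed here, while a treatment label gives 3 hours. Values are log2 expression levels as the authors normalised them, and a level of one probe set cannot be set against that of another. The labels do not say whether the 3 replicas were separate animals or pools of retinas, so the p-values speak only of the scatter among these arrays, part or all of which could be technical. In such tissue samples, fewer cells of a type and less RNA per cell cannot be told apart.

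Photoreceptors release glutamate in darkness, and ON bipolar cells read it through the metabotropic receptor mGluR6, the product of *Grm6*. In darkness this receptor, acting through the G protein Go, keeps the cation channel TRPM1 closed. Light lowers the glutamate, the G protein is switched off with the help of regulator proteins such as RGS11, and the channel opens and depolarises the cell. *Gng13* encodes a G protein gamma subunit of these cells, *Nyx* the anchoring protein nyctalopin, *Pcp2* a modulator of Go found in bipolar cells, and *Prkca* the protein kinase C alpha that is the standard marker of rod bipolar cells. *Cabp5* encodes a calcium-binding protein and *Vsx1* a homeodomain transcription factor of bipolar cells.

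The 250 bases before the annotated start are shown for the receptor, the gamma subunit and the channel, 3 genes of one signalling chain. By their brightest probe set all 5 measured genes had their lowest mean value in 3 ZT light, *Prkca* only barely (9.634 against 9.647 in 3 ZT dark). The *Grm6* probe set 1371235_at had its lowest mean in 0 ZT dark. How many of all probe sets were lowest in 3 ZT light was not counted. The windows of *Pcp2* and *Prkca* overlap the annotated span of the same gene and are not shown. The sequences are those of RefSeq on build GRCr8, in which 7 of the 9 genes had an entry. Capitals mark TAATCC or its reverse complement GGATTA, the core that the bipolar and photoreceptor factors CRX and OTX2 recognise.
Grm6, chr10:35668753-35669002, plus strand: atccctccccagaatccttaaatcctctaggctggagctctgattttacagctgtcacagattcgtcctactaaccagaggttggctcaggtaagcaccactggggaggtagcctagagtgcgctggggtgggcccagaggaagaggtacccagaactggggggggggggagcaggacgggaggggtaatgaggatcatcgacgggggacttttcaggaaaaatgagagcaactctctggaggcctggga
Gng13, chr10:15245448-15245697, plus strand: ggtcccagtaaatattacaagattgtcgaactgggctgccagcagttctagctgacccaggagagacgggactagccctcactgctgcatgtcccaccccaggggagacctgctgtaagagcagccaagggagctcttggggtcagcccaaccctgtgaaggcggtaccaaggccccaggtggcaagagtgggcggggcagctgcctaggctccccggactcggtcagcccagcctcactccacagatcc
Trpm1, chr1:127130436-127130685, plus strand: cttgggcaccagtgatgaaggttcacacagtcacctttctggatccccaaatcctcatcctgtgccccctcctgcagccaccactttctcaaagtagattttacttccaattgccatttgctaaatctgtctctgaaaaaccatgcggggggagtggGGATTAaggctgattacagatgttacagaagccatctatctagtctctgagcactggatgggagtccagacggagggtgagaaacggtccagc
Among these windows only that of *Trpm1* held the core, on the minus strand and beginning 93 bases before the start. The window of *Nyx* held it too, 43 bases before the start. TAATCC or GGATTA was present in 6.34% of the 33469 RefSeq windows of the same length, and the palindrome TAATTA, another homeodomain core, in 4.86% of them and in no window of these genes.

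Array medians differed by replica number, from 8.28 to 8.32 in replica 1, 8.58 to 8.68 in replica 2 and 8.745 to 8.802 in replica 3, so light and darkness were compared between arrays of the same number. The mean log2 value of 6 rod genes, which define the tissue, lay between 14.55 and 14.81 in every array. Replica 1 of 0 ZT dark and replica 2 of 3 ZT light stood apart in the difference between the 3′ and 5′ control probe sets of *Actb*, which was 2.098 and 2.399 there and 0.71 to 1.37 in the other 13 arrays. For the comparisons that use either array, the members' log2 estimates are also given without both where they moved by over 1.5 times, and in all cases for 3 ZT light.

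*Grm6*, the glutamate receptor itself, stood lower after 3 hours of light. The brightest of its probe sets (1387989_at) gave log2 values of 10.04, 10.70 and 9.56 in replicas 1, 2 and 3 of 3 ZT light, averaging 10.10 ± 0.577 (SD, n = 3). In 3 ZT dark it gave 11.03, 10.90 and 10.85, with a mean of 10.93 ± 0.0976 (SD, n = 3). Every 3 ZT light array thus lay below every 3 ZT dark array, although the light arrays were spread far more widely than the dark ones. What share of all probe sets separates groups in this way was not counted, here or for the genes below. In 0 ZT dark the values were 10.67, 11.19 and 11.17, which overlapped those of 3 ZT light. At 6 ZT the dark arrays read 10.46, 11.09 and 10.90 and the light arrays 10.40, 11.39 and 10.78, which overlapped each other. The other *Grm6* probe sets, 1371236_at and 1371235_at, ran from 5.38 to 6.78 and from 5.23 to 5.69 over all 15 arrays. They lay below the median of every array and did not follow the brightest one, with mean 3 ZT light to 3 ZT dark ratios of 0.945 ± 0.147 and 0.993 ± 0.0534 (SD, n = 3).

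*Gng13*, the gamma subunit, was also lower in 3 ZT light within each replica. Its log2 values were 11.20, 11.21 and 12.21 in 3 ZT light and 12.10, 11.81 and 12.74 in 3 ZT dark. The 0 ZT dark arrays read 11.66, 12.48 and 12.84. Replica 3 was the highest in all of these conditions, so the groups overlapped on the raw scale while each pair of the same number ran the same way. At 6 ZT the values were 11.93, 11.52 and 12.57 in darkness and 11.70, 12.16 and 12.12 in light, with neither group above the other.

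*Trpm1*, the channel at the end of the chain, varied widely between replicas. Its log2 values were 8.62, 8.15 and 9.68 in 3 ZT light, against 9.19, 9.54 and 9.38 in 3 ZT dark. In 0 ZT dark they were 8.36, 9.67 and 9.81. The lowest 2 of its 15 values came from the arrays that stood apart in the *Actb* difference, replica 2 of 3 ZT light and replica 1 of 0 ZT dark. Replica 3 was higher in light than in darkness at 3 ZT. The values were 8.86, 9.96 and 10.13 in 6 ZT dark and 8.90, 10.35 and 10.47 in 6 ZT light, higher in light within each replica.

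*Pcp2*, the modulator of Go, separated 3 ZT light from all dark groups. Under 3 ZT light its log2 values were 13.52, 13.32 and 13.75, averaging 13.53 ± 0.215 (SD, n = 3). In darkness they read 14.28, 14.77 and 14.42 at 0 ZT, 14.15, 14.48 and 14.24 at 3 ZT, and 13.92, 14.12 and 14.37 at 6 ZT. The highest 3 ZT light array lay below the lowest array of each dark group, a separation whose share over all probe sets was not counted. The 6 ZT light arrays gave 13.62, 14.52 and 14.18, of which the first fell within the 3 ZT light range. In every later condition and every replica *Pcp2* was below the 0 ZT dark array of the same number.

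*Prkca*, the rod bipolar marker, did not share this pattern. Its log2 values were 9.61, 9.86 and 9.43 in 3 ZT light and 9.48, 9.72 and 9.74 in 3 ZT dark, which overlapped, and the light array was the higher in replicas 1 and 2. In 0 ZT dark they were 9.56, 10.01 and 9.96. The 6 ZT light values of 9.98, 10.19 and 9.99 had the highest mean of the 5 conditions, 10.06 ± 0.120 (SD, n = 3), against 9.51, 9.98 and 9.89 in 6 ZT dark.

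**Figure D1:**
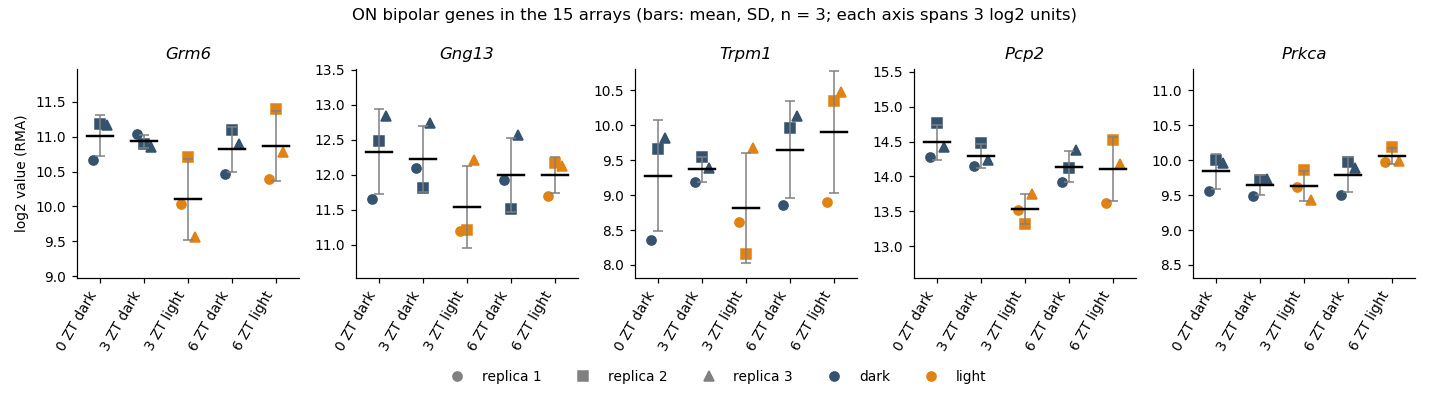
Log2 expression value (vertical axis) of the brightest probe set of each measured gene in the 5 conditions (horizontal axis); points are arrays, shaped by replica number, black bars the means and grey bars the SD of 3 replicas, and each vertical axis spans 3 log2 units. The 3 ZT light values of *Pcp2* (13.32 to 13.75) lie below all dark values of that gene, whereas those of *Prkca* (9.43 to 9.86) overlap the dark ones.

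The first question of the design, what 3 hours of light change at a fixed hour, is answered by 3 ZT light against 3 ZT dark. The ratio of light to dark in replicas 1, 2 and 3 was 0.643, 0.449 and 0.714 for *Pcp2*, with a mean of 0.602 ± 0.137 (SD, n = 3). For *Grm6* it was 0.5003, 0.875 and 0.409, with a mean of 0.595 ± 0.247, and for *Gng13* 0.535, 0.657 and 0.695, with a mean of 0.629 ± 0.0833. All 3 genes were therefore lower in each of the 3 replicas, most evenly so *Gng13*. The *Trpm1* ratio was 0.673, 0.381 and 1.23 and that of *Prkca* 1.09, 1.10 and 0.810, without a common direction in either. Of the 7 probe sets, 3 were lower in all 3 replicas, where 9.43% of all 31042 probe sets tested were. The members were chosen with earlier results of these data known. Their shares beside those of all probe sets, here and below, therefore describe these genes and are not independent evidence.

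In limma's fit with the replica number as a block, *Pcp2* differed by -0.76 ± 0.176 (SE) on the log2 scale, *Grm6* by -0.83 ± 0.230 and *Gng13* by -0.68 ± 0.230. Their unadjusted p-values in limma were 0.00136, 0.00448 and 0.0138. None of them passed the adjustment over all probe sets, since Benjamini-Hochberg adjusted p was 0.895 for each. The *Trpm1* estimate of -0.56 had a 95% interval from -1.32 to 0.21, and that of *Prkca*, -0.01, one from -0.25 to 0.23. No member was called at an adjusted p under 0.05, where 0.00322% of all probe sets, a single one, were. At an unadjusted p under 0.05, 3 of the 7 probe sets were lower, against 2.64% of all. The median difference of the 5 genes was -0.68, while the median over all probe sets was 0.00.

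Without both arrays that stood apart in the *Actb* difference, the *Pcp2* estimate was -0.54, that of *Grm6* -1.02 and that of *Gng13* -0.61. The *Trpm1* estimate was -0.07 without them, so its lower mean in 3 ZT light rests on replica 2 of that condition. That of *Prkca* was -0.065. Leaving out any single array left *Pcp2* between -0.88 and -0.55, *Grm6* between -1.04 and -0.55 and *Gng13* between -0.82 and -0.56. The *Grm6* value nearest to 0 was that without replica 3 of 3 ZT light.

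**Figure D2:**
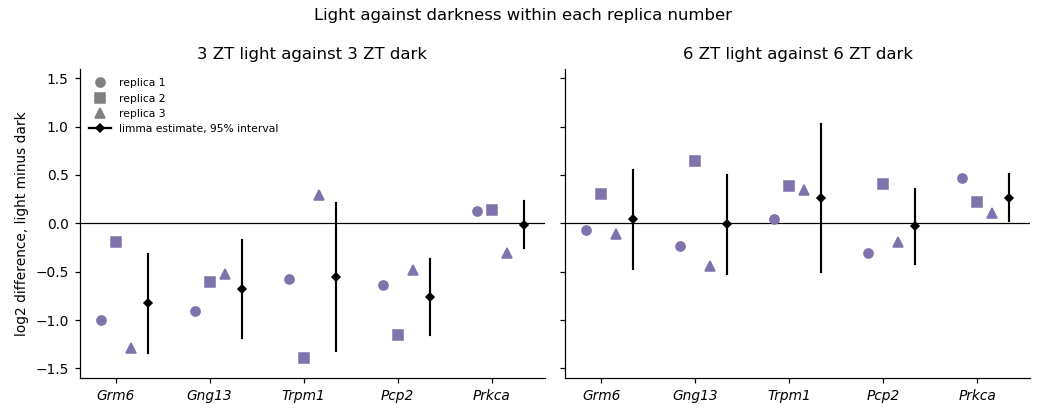
Log2 difference between light and dark arrays of the same replica number (vertical axis) at 3 ZT (left) and 6 ZT (right) for the 5 measured genes; purple points are replicas, black diamonds limma's estimates and black lines their 95% intervals. *Grm6*, *Gng13* and *Pcp2* lie below 0 in all 3 replicas at 3 ZT and on both sides of 0 at 6 ZT.

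Against the common reference of 0 ZT dark, which this comparison shares with those below, the same 3 genes stood lower after the light. The 3 ZT light arrays are those of the comparison above, so this is not a second independent result. The ratio was 0.589, 0.368 and 0.631 for *Pcp2*, with a mean of 0.529 ± 0.141 (SD, n = 3), and 0.645, 0.716 and 0.328 for *Grm6*, with a mean of 0.563 ± 0.207. For *Gng13* it was 0.727, 0.414 and 0.646, with a mean of 0.596 ± 0.163. *Trpm1* had no common direction, at 1.20, 0.349 and 0.911, nor did *Prkca*, at 1.04, 0.903 and 0.695. Lower in all 3 replicas were 3 of the 7 probe sets, against 11.0% of all, and lower than both 3 ZT dark and 0 ZT dark in all 3 were again 3 of 7, against 4.11% of all.

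*Pcp2* was the only member below 0.7 times 0 ZT dark in all 3 replicas, a threshold of the study's methods that 0.0741% of all probe sets met in 3 ZT light; the study selected genes by this rule on these same arrays, so meeting it is not independent evidence. *Grm6* missed the threshold in replica 2 and *Gng13* in replica 1. In limma's fit the log2 differences from 0 ZT dark were -0.96 ± 0.176 (SE) for *Pcp2*, -0.91 ± 0.230 for *Grm6* and -0.79 ± 0.230 for *Gng13*, with adjusted p of 0.266, 0.456 and 0.533. No member was called, where 0.00322% of all probe sets, again 1, were; at an unadjusted p under 0.05, 3 of 7 were lower, against 4.43% of all. Without both arrays with the large *Actb* difference the estimates were -0.71 for *Pcp2*, -1.20 for *Grm6*, -0.94 for *Gng13*, -0.11 for *Trpm1* (-0.46 with them) and -0.34 for *Prkca* (-0.21 with them).

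At 6 ZT the replicas of *Pcp2*, *Grm6* and *Gng13* did not share a direction. The ratio of 6 ZT light to 6 ZT dark was 0.809, 1.33 and 0.877 for *Pcp2*, 0.957, 1.23 and 0.923 for *Grm6*, and 0.852, 1.56 and 0.735 for *Gng13*, each above 1 in replica 2 only. The 95% intervals of the log2 difference ran from -0.42 to 0.36 for *Pcp2*, from -0.47 to 0.55 for *Grm6* and from -0.52 to 0.50 for *Gng13*. These intervals are wide enough to hold a moderate difference either way. *Prkca* was higher in light in 3 of 3 replicas, with ratios of 1.39, 1.16 and 1.08 and a log2 difference of 0.27 ± 0.108 (SE), adjusted p = 0.562 in limma. *Trpm1* was higher in 3 of 3 as well, with ratios of 1.03, 1.31 and 1.27 and a log2 difference of 0.26 ± 0.346 (SE), adjusted p = 0.832; without replica 2 of 6 ZT light it was 0.064. Higher in all 3 replicas were these 2 of the 7 probe sets, against 17.2% of all. No member and 0.0% of all probe sets passed limma's adjusted threshold, while before adjustment 1726 higher and 921 lower ones had p under 0.05. *Prkca* was the only one of the 7 among the higher, which made up 5.56% of all.

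The difference between the light effects at 6 ZT and at 3 ZT was tested directly. It was 0.73 ± 0.249 (SE) for *Pcp2*, 0.87 ± 0.325 for *Grm6*, 0.67 ± 0.325 for *Gng13*, 0.81 ± 0.489 for *Trpm1* and 0.28 ± 0.153 for *Prkca* on the log2 scale. All 5 were positive, where 51.2% of all probe sets were below 0. Of the other *Grm6* probe sets 1371236_at was at 0.081 and 1371235_at at -0.025. Each of the 5 had an adjusted p of 0.776 in limma, so none was called and a difference between the hours is not shown. The *Trpm1* value was 0.33 without both arrays with the large *Actb* difference and 0.32 without replica 2 of 3 ZT light alone. With array quality weights the values were 0.24 for *Gng13*, 0.45 for *Trpm1* and 0.47 for *Pcp2*, and without replica 3 of 3 ZT light that of *Prkca* was 0.15. No probe set of the array was called (0.0%), with 1286 above 0 and 561 below 0 at p under 0.05 before adjustment; *Pcp2* and *Grm6* were 2 of the 7 among the higher, 4.14% of all.

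Over time in darkness the differences of *Pcp2*, *Grm6* and *Gng13* were smaller than those of 3 ZT light. From 0 ZT dark to 3 ZT dark the log2 differences were -0.20 for *Pcp2*, -0.19 for *Prkca*, -0.11 for *Gng13*, -0.08 for *Grm6* and 0.09 for *Trpm1*, each with an adjusted p of 1 in limma. From 0 ZT dark to 6 ZT dark they were -0.35 for *Pcp2*, -0.32 for *Gng13*, -0.19 for *Grm6*, -0.05 for *Prkca* and 0.37 for *Trpm1*, with 0.602 as the lowest adjusted p. *Pcp2* and *Prkca* were lower than 0 ZT dark in 3 of 3 replicas at both hours and *Grm6* in 3 of 3 at 6 ZT, while *Trpm1* was higher in 3 of 3 at 6 ZT. Lower in all 3 replicas were thus 2 of the 7 probe sets at 3 ZT, against 8.52% of all, and 3 at 6 ZT, against 15.1% of all, and 1 was higher in all 3 at 6 ZT, against 15.5% of all. Without both arrays with the large *Actb* difference the 3 ZT estimates were -0.33 for *Gng13*, -0.18 for *Grm6* and -0.037 for *Trpm1*, and the 6 ZT estimates -0.55 for *Gng13*, -0.29 for *Grm6*, -0.13 for *Prkca* and 0.24 for *Trpm1*. Single arrays moved these values by over 1.5 times too. At 6 ZT *Gng13* was -0.55 without replica 1 and -0.11 without replica 2 of 0 ZT dark, *Grm6* -0.033 without replica 3 of 0 ZT dark and *Trpm1* 0.18 without replica 1 of it. In neither comparison was any probe set of the array called (0.0% in each) in limma; before adjustment, p was under 0.05 for 148 higher and 241 lower ones at 3 ZT and for 1077 and 1634 at 6 ZT.

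In 6 ZT light against 0 ZT dark, *Trpm1* was the highest of the 5, at 1.45, 1.603 and 1.58 times its 0 ZT dark level, a mean of 1.55 ± 0.0802 (SD, n = 3). Its log2 difference of 0.63 had an adjusted p of 0.851 in limma. *Prkca* was higher in 3 of 3 replicas too, with ratios of 1.34, 1.14 and 1.03, and *Pcp2* lower in 3 of 3, with a mean ratio of 0.776 ± 0.124 (SD, n = 3). Higher in all 3 replicas were 2 of the 7 probe sets, against 12.3% of all, and 1 was lower in all 3, against 9.38%. Without both arrays with the large *Actb* difference the log2 estimates moved from -0.33 to -0.56 for *Gng13*, from -0.15 to -0.25 for *Grm6* and from 0.22 to 0.14 for *Prkca*. Without replica 1 of 6 ZT light that of *Pcp2* moved from -0.38 to -0.21. No probe set of the array was called (0.0%) in limma, with 1216 higher and 702 lower ones under 0.05 before adjustment.

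Centred within each replica number, all 5 genes had their lowest mean in 3 ZT light by their brightest probe set, a count without its share over all probe sets. The *Grm6* probe set 1371235_at was lowest in 0 ZT dark, at -0.030, and stood at 0.008 in 3 ZT light. For *Trpm1* the lowest place rests on replica 2 of 3 ZT light, without which its log2 estimate against 0 ZT dark was 0.032. For *Pcp2* the centred log2 means were 0.38 ± 0.1496 at 0 ZT, 0.18 ± 0.116 at 3 ZT and 0.03 ± 0.152 at 6 ZT in darkness, then -0.00 ± 0.281 for 6 ZT light and -0.58 ± 0.294 for 3 ZT light (SD, n = 3). Neighbours in this order down to 6 ZT light lay at most 0.20 apart, close to their SDs, and the step to 3 ZT light was the widest. *Gng13* had the same order, and *Grm6* differed from it only in that 6 ZT light stood above 6 ZT dark. *Prkca* and *Trpm1* had 6 ZT light at the top, at 0.26 ± 0.0820 and 0.50 ± 0.355, and for *Prkca* the lowest means, -0.16 in 3 ZT light and -0.15 in 3 ZT dark, differed by less than their SD. Over the 15 arrays, which share replica numbers and controls, Pearson's r between pairs of the centred values ran from 0.173 for *Pcp2* with *Prkca* to 0.804 for *Gng13* with *Pcp2*.

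The other genes of bipolar cells were read from lists of 52 genes, of which 38 had a probe set. Each was read by its brightest probe set only. Further probe sets, as for *Gnb3* and *Isl1* with 2 in all and *Kcnma1* with 3, were not examined. The lists too were chosen with earlier results of these data known, and expression of their genes in other retinal cells was not tested. In 3 ZT light against 3 ZT dark 29 of the 38 stood lower and 9 higher, with a median log2 difference of -0.20, and none passed limma's adjusted threshold; without adjustment, 7 lower and 0 higher genes had a p under 0.05. Of all probe sets 49.7% were lower, 2.64% with such a p, and 1.96% were higher with such a p. A filter on dim probe sets left 15521, of which 8509 were lower. Without both arrays with the large *Actb* difference 29 of the 38 were again lower, with a median of -0.16, but 1 in place of 7 had a p under 0.05. The 5 measured genes of the ON signalling complex were split, 3 lower and 2 higher, with a median of -0.01. *Gnb3*, a G protein beta subunit, had the lowest p of the whole set. Its log2 values were 12.20, 12.50 and 12.46 in 3 ZT light and 12.59, 12.70 and 12.97 in 3 ZT dark, with no overlap, and its log2 difference was -0.37 ± 0.0959 (SE), adjusted p = 0.895 in limma. *Gnao1*, the Go alpha subunit, differed by 0.21 ± 0.335 (SE), *Gnb5* by 0.02 and *Rgs7*, a regulator of Go, by -0.01; these 3 were singled out after their values were seen.

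Of 9 transcription factors of bipolar cells 6 were lower, with a median of -0.08. *Isl1*, a LIM homeodomain factor of ON bipolar and some other inner retinal neurons, gave differences of -1.12, -1.03 and -0.10 in replicas 1, 2 and 3 and a log2 estimate of -0.75 ± 0.227 (SE). Of 13 OFF and other bipolar markers 10 were lower, with a median of -0.20, among them *Samsn1* at -0.59 ± 0.183 and *Car8*, a carbonic anhydrase-related protein, at -0.50 ± 0.174. Of 11 genes of the bipolar synapse and its inhibitory input 10 were lower, 8 of them in all 3 replicas, with a median of -0.29. All of these had an adjusted p of 0.895 or more in limma. Without both arrays with the large *Actb* difference the medians were -0.06 for the signalling complex, -0.17 for the transcription factors, -0.14 for the OFF and other markers and -0.20 for the synapse list, and *Samsn1* stood at -0.36.

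Against 0 ZT dark, 28 of the 38 stood lower in the same 3 ZT light arrays, with a median of -0.16. Lower were 48.8% of all probe sets, and 9193 of the 15521 left by a filter on dim ones. Without both arrays with the large *Actb* difference 24 of 38 were lower, with a median of -0.13. With all arrays the lowest adjusted p was 0.343 in limma, again for *Gnb3* at -0.45 ± 0.0959 (SE). *Tpbg*, a leucine-rich repeat protein of rod bipolar cells, stood at -0.49, *Fezf2*, a zinc-finger factor, at -0.46 and *Calb1*, the calcium-binding protein calbindin, at -0.31, each lower in 3 of 3 replicas. *Tpbg* was also at -0.29 in 3 ZT dark against 0 ZT dark, and at -0.20 in 3 ZT light against 3 ZT dark. At 6 ZT the 38 were divided, 18 higher and 20 lower in light, with a median of -0.01. There *Tpbg* was higher in light by 0.35 ± 0.119 (SE) and *Kcnma1*, the large-conductance potassium channel, by 0.49 ± 0.196, while *Prdm8*, a bipolar transcription factor, stood at -0.42 ± 0.157 and *Hcn4*, a pacemaker channel, at -0.20 ± 0.0824, with adjusted p between 0.524 and 0.561 in limma. Between 0 ZT and 6 ZT in darkness *Prdm8* differed by 0.59, adjusted p = 0.495.

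**Figure D3:**
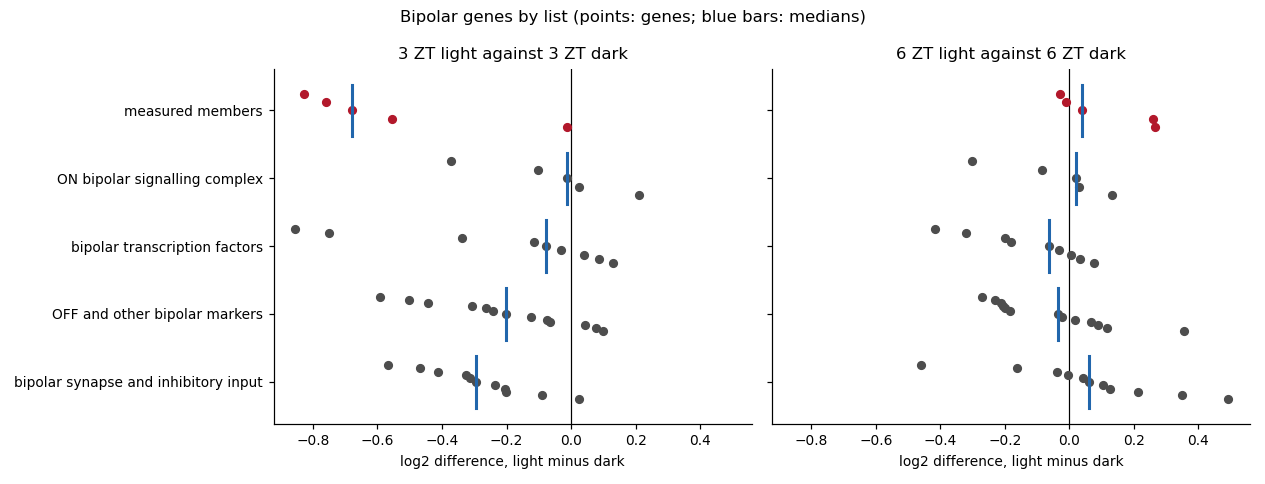
Log2 difference of light minus dark (horizontal axis) at 3 ZT (left) and 6 ZT (right) in limma for the 5 measured members (red) and the 38 other bipolar genes (grey), by list. Each point is the brightest probe set of a gene and blue bars are list medians. At 3 ZT the member median is -0.68 and the other medians lie between -0.29 and -0.01, and at 6 ZT all medians lie close to 0.

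Markers of other cell types were read beside these values. In 3 ZT light against 3 ZT dark all 7 Müller glia genes stood lower, with a median of -0.23 and a mean log2 level of the list of 12.34 to 12.99 in light against 12.80 to 13.03 in darkness. All 6 cone genes stood lower too, with a median of -0.22 and levels of 11.65 to 11.98 against 12.002 to 12.19. Lens genes stood higher in 8 of 9, with a median of 0.47 and levels of 10.51 to 12.38 against 10.42 to 11.42. Rod genes were 3 higher and 3 lower, with a median of -0.00, horizontal cell genes 2 and 3 (-0.02), amacrine genes 6 and 3 (0.05), ganglion cell genes 4 and 3 (0.23) and pigment epithelium genes 3 and 3 (0.01), and the 3 blood and vessel genes were all lower (-0.41). No gene of these lists passed limma's adjusted threshold in this comparison. At 6 ZT all 9 lens genes stood lower in light, with a median of -1.50 and levels of 8.96 to 11.60 against 11.53 to 12.49, and 5 of 6 pigment epithelium genes stood higher, with a median of 0.58. All 7 ganglion cell genes stood lower, 5 of them in all 3 replicas, with a median of -0.46, as did 8 of 9 amacrine genes (-0.18). Rod genes were higher in 6 of 6 (0.07) and cone genes in 5 of 6 (0.15). Müller glia genes were 4 higher and 3 lower (0.01), horizontal cell genes 3 and 2 (0.08) and blood and vessel genes 1 and 2 (-0.04). Again no gene of these lists passed limma's adjusted threshold. The part of carried-over tissue or of the cell mix in the bipolar values was not tested.

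The genes most like the members were sought by Pearson's r between the mean centred profile of the 5 genes and each of 14212 other genes over the 15 arrays. They were *Cmya5* (0.938), *Alox5ap* (0.926), *Samsn1* (0.922), *Tle6* (0.921) and *Mfap3l* (0.910). With any 1 array left out, r ranged from 0.850 to 0.953 over these genes. Without the 3 arrays of 3 ZT light it was 0.650 to 0.774 over the other 12, so much of the likeness lies in that condition. Their centred means in 3 ZT light ran from -0.50 for *Cmya5* to -0.30 for *Tle6*, against -0.49 ± 0.181 (SD, n = 3) for the mean of the members.

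**Figure D4:**
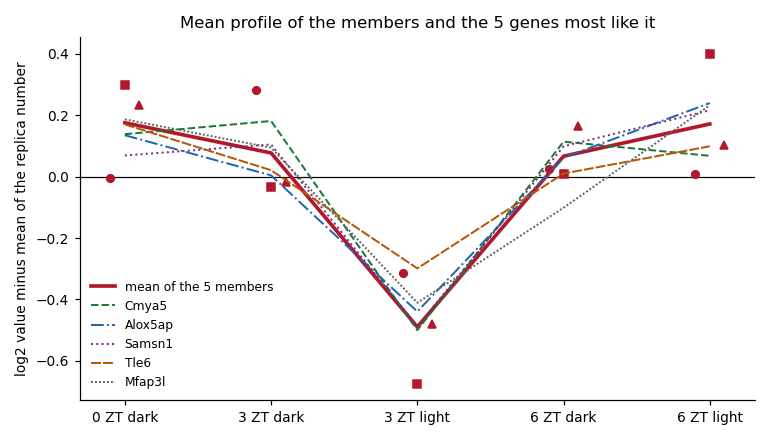
Log2 value minus the mean of its replica number (vertical axis) in the 5 conditions (horizontal axis); the red line is the mean of the 5 measured members with its 3 replicas as points, and the other lines are condition means of the 5 genes with the highest Pearson's r to it over 15 arrays. All lines have their lowest point in 3 ZT light, where the members' mean is -0.49.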

How the data were processed

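Total RNA of rat retinas was hybridised to 15 Affymetrix Rat Genome arrays. The deposited values are log2 expression levels that the authors obtained by robust multi-array averaging (RMA), which corrects the background, normalises quantiles and summarises each probe set; the software version is not given in the sources used here. The number of arrays limits the precision. Gene symbols come from the platform annotation, which names 1 symbol for 20832 probe sets, several for 436 and none for 9831, and can be old. Tests did not use the 57 controls.

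Conditions were compared with limma 3.58.1 in R 4.3.3 (lmFit and eBayes over all 15 arrays, condition plus replica number), with Benjamini-Hochberg adjustment over 31042 probe sets at 0.05. Ratios are 2 to the power of the difference between arrays of the same number. Genes outside the members were read by their brightest probe set only. Same-numbered arrays deviated together (r = 0.241 to 0.797 over 30 pairs), and 3.58 to 14.1% of their values were exactly equal, against 0.0161 to 0.0902% between arrays of different numbers, and array medians differed by number. Whether the numbers were normalised separately is not given in the sources used here, and where the sharing arises was not tested. All probe sets of the members were reported, the brightest in full; of the 38 other bipolar genes, up to 4 per comparison with the lowest p were named, with 5 genes most alike by Pearson's r. *Gnao1*, *Gnb5* and *Rgs7* were added after their values were seen. The members and lists were chosen with earlier results of these data known. The fit was tested on simulated data. Alternatives were no replica block, quantile normalisation, median centring, array quality weights, a filter on dim probe sets, only the compared conditions, every probe set, stricter ratios and each array left out. A fit without the pair of arrays that stood apart in *Actb* was added after seeing the data. Promoters came from RefSeq (GRCr8); motifs were searched on both strands.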

Additional observations from a re-analysis of the deposited data

Results flagged for a closer look

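For 2 of the named bipolar genes the light effect ran in opposite directions at the 2 hours in every replica. Both had been named for a low p in these comparisons. Of all probe sets 9.43% were lower in light in all 3 replicas at 3 ZT, and 17.2% were higher in all 3 at 6 ZT. The share that did both was not counted. The log2 difference between light and dark in replicas 1, 2 and 3 was -0.16, -0.04 and -0.40 at 3 ZT and 0.38, 0.27 and 0.40 at 6 ZT for *Tpbg*. The difference between the light effects was 0.55 ± 0.168 (SE) on the log2 scale, adjusted p = 0.776 in limma. For *Kcnma1* the differences were -0.50, -0.31 and -0.42 at 3 ZT and 0.23, 1.15 and 0.11 at 6 ZT, and the light effects differed by 0.90 ± 0.277 (SE), adjusted p = 0.776 in limma. Neither passed the adjustment, and the cause was not tested.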

How the results depend on the processing

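No member was called under any of the 22 alternatives. The lowest adjusted p was 0.0648, for *Gng13* in 6 ZT light against 0 ZT dark (log2 difference -0.75) with array quality weights, and over all settings that result ran up to 1. These weights were 7.447 for replica 3 of 6 ZT light and 0.488 and 0.464 for replicas 1 and 2 of it. For *Pcp2* in 3 ZT light against 0 ZT dark adjusted p ran from 0.0910 to 1. Without the replica block every log2 difference was the same by construction, and for *Pcp2* in 3 ZT light against 3 ZT dark p was 0.00480 and adjusted p 1; the block changed no call of a member. Of 2039 alternative values 1988 kept their direction and side of the threshold or moved by less than the replica spread.

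The median of the 5 genes in 3 ZT light against 3 ZT dark, -0.68, was -0.55 with array quality weights, -0.54 without both arrays with the largest *Actb* difference and -0.56 with every probe set, and ran from -0.82 to -0.55 with 1 array left out. In 6 ZT dark against 0 ZT dark, -0.19, it was -0.15 with quantile normalisation, -0.23 with weights, -0.29 without both *Actb* arrays, -0.0502 with every probe set and -0.30 to -0.033 with 1 array left out. The count below 0.7 in 3 ZT light was 0 with ratios of 2 and 0.5, 2 without replica 1 (*Gng13* and *Pcp2*) or replica 2 (*Grm6* and *Pcp2*), and 1 to 2 over the replicas left out.

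Some differences, none of them called and most near 0, turned their sign. With weights *Prkca* was 0.018 in 3 ZT light against 3 ZT dark and *Trpm1* -0.11 in 3 ZT dark against 0 ZT dark, where it was -0.037 without both *Actb* arrays. With quantile normalisation *Grm6* was -0.0074 in 6 ZT light against 6 ZT dark. With 1 array left out, *Prkca* ran from -0.10 to 0.12 in 3 ZT light against 3 ZT dark and from -0.12 to 0.023 in 6 ZT dark against 0 ZT dark. In 6 ZT light against 6 ZT dark *Gng13* ran from -0.23 to 0.21, *Grm6* from -0.10 to 0.19 and *Pcp2* from -0.21 to 0.14. Weights moved *Gng13* further there, from -0.01 to -0.38. The ranges that follow are again those with 1 array left out. In 3 ZT dark against 0 ZT dark *Gng13* ran from -0.34 to 0.10, *Grm6* from -0.29 to 0.13 and *Trpm1* from -0.18 to 0.39. In 3 ZT light against 0 ZT dark *Trpm1* ran from -0.73 to 0.032, the latter without replica 2 of 3 ZT light, and in 6 ZT light against 0 ZT dark *Grm6* ran from -0.29 to 0.0070. *Tpbg*, *Prdm8* and *Hcn4* passed the threshold in 6 ZT light against 6 ZT dark with weights alone (adjusted p 0.0231, 0.0211 and 0.0443, and up to 1 under other settings). Weights also raised the calls among all probe sets from 0 to 2311 there and from 0 to 676 in 6 ZT light against 0 ZT dark. In both, the weighted light side leans mostly on replica 3 of 6 ZT light, whose weight was 7.447. The causes were not tested.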
